A study of Arabidopsis thaliana with 2 samples.

Results

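The genes described here are the circadian clock of Arabidopsis thaliana, its photoperiod and RNA-binding outputs, and the photoreceptors and transcription factors of light signalling. The 46 members were taken by locus identifier from a fixed list, out of 33602 loci in the count tables, and all 46 are present there. RNA was sequenced from explants of the first rosette leaf pair, cut at 12 days after sowing. Both groups carry pER8:3xFlag-NAC1 in the Col-0 ecotype, an insert from which estradiol induces Flag-tagged NAC1, a NAC-domain transcription factor gene, through a constitutively expressed hormone-responsive activator. The estradiol group was cultured on B5 medium with β-estradiol in DMSO, and the control group on B5 medium with DMSO alone. The design text names the search for genes up-regulated by NAC1 as the purpose. Each group holds 1 library, so no test was made, and every difference is between 2 libraries. No library with estradiol but without the transgene was analysed here, so the hormone and NAC1 induction cannot be told apart. Seedlings were raised in long days. The labels do not state the clock hour of harvest, the light given to the explants, the culture time or how many transgenic lines were used.

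The plant clock is a loop of transcription factors that repress one another in turn through the day. CCA1 and LHY peak at dawn, the PRR proteins follow from morning to dusk, and the evening complex acts at dusk and into the night. Phytochromes sense red and far-red light and cryptochromes sense blue light. They act through the PIF and HY5 transcription factors and the COP1 ubiquitin ligase. In the leaf phloem, clock and light meet at CO, which in long days switches on FT, the mobile signal for flowering.

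The libraries held 48350705 gene counts with estradiol and 39799127 in the control. NAC1 (AT1G56010) had 28380 counts with estradiol and 466 in the control, 49.4-fold higher (95% counting interval 45.1 to 54.3), which fits the treatment labels. The library titles, DM for the estradiol library and ER for the control, could be read the other way round. Groups were taken from the treatment label, which the treatment protocol matches. Transgene and native transcripts share this locus in the counts, and the locus overlaps a neighbouring gene by annotation. Leaf identity was plain in both libraries. The 5 leaf markers RBCS1A, RCA, CAB1, LHCB2.1 and CA1 summed to 7182 CPM (counts scaled to a library of 1000000) with estradiol and 10188 CPM in the control. All 5 had log2 ratios below 0, between -2.04 and -0.19, and 1 of them, LHCB2.1, was called lower. Of 4 root hair markers, RHD6 and EXPA7 were at 0 in both libraries, and COBL9 and PRP3 had at most 2 counts. The part of the leaf marker difference in the results below was not tested. In bulk tissue, fewer cells of a type and less RNA per cell cannot be told apart.

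Ratios are estradiol over control after scaling for library size. A gene was called higher or lower where the whole exact 95% counting interval of its ratio lay above 2-fold or below its inverse. Of the 46 members, 8 were called lower and 0 higher. These were CO, FT, CDF3, LNK1, PIF4, GI, CDF1 and FKF1. With an assumed coefficient of variation of 0.2 between libraries 3 calls held (CO, FT and CDF3), and at a 4-fold threshold 1 did (CO). Without the members that overlap another annotated gene 5 were called, since CO, LNK1 and FKF1 were left out. The share of all measured genes called was not computed under these other settings. The 8 lower calls of the main rule are 17.4% of the 46 members, against 4.64% of 20274 measured genes. Members were chosen with earlier results of these data known, so their share is not independent of the ratios. The share of all measured genes called higher was 5.38%. All 46 members passed the minimum of 10 counts in 1 or more libraries. PRR9 passed through the control alone (8 counts with estradiol, 18 in the control), as did FT, while AT1G69570 and COL1 passed through the estradiol library alone. The members' median log2 ratio was -0.34, and 34 of 46 were below 0. The median of all measured genes was 0.01.

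Classes follow the textbook time of peak transcript level in light-dark cycles, and all 8 calls fell among the 32 genes given a class. The classes were set with earlier results of these data known, so this split is not independent of the ratios. Of 15 dawn genes 3 were lower, with a median log2 ratio of -0.21. Of 4 day genes (PRR9, PRR7, PIF4 and PIF5) 1 was lower, with a median of -1.12. Of 13 afternoon and evening genes 4 were lower, with a median of -0.34. Of 14 genes without a time class, 0 were called and the median was -0.24. The share of all measured genes called lower was 4.64%. At that share 14 genes are too few to set 0 calls apart from genes in general. All 4 day genes had log2 ratios below 0, between -1.43 and -0.40. The dawn genes ran from -2.05 to 1.39, and the evening genes from -3.04 to 0.38. Whether the classes differ from each other was not tested.

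**Figure D1:**
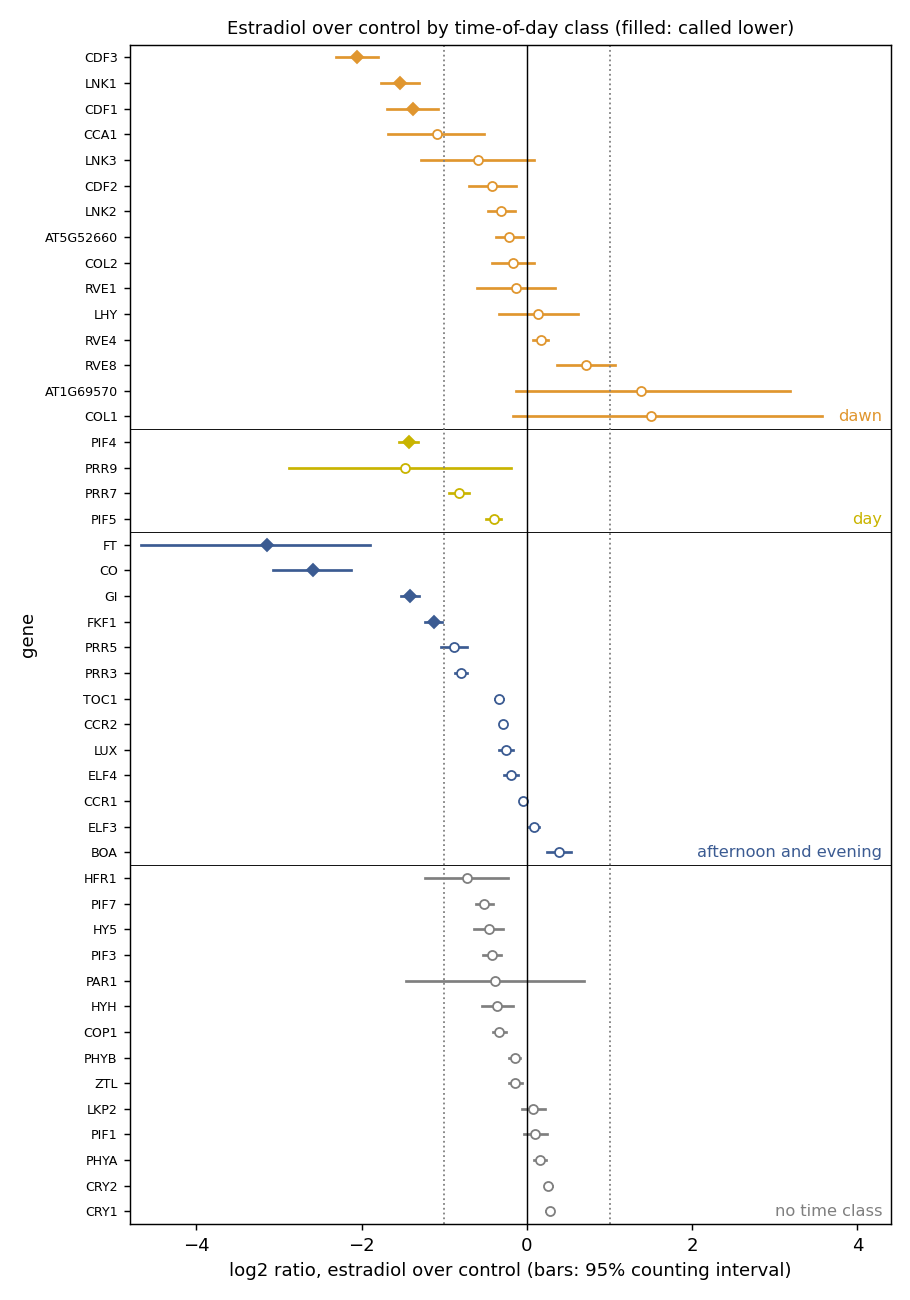
Ratio of estradiol to control for each of the 46 genes on a log2 axis, grouped by time-of-day class, 1 library per group. Points are ratios without a prior count, bars are 95% counting intervals, filled diamonds mark genes called lower, and dotted lines mark 2-fold either way. FT and CO stand farthest to the left, and TOC1, CCR1, CCR2 and the evening complex genes lie close to 0.

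Levels per length were compared as RPKM, the scaled CPM divided by annotated exon length in kilobases. Dawn genes ran from 0.169 to 22.6 RPKM with estradiol and from 0.0596 to 20.2 RPKM in the control. Afternoon and evening genes ran from 0.126 to 655 RPKM with estradiol and from 1.12 to 799 RPKM in the control. CCR2 (symbol GRP7), an RNA-binding protein gene under clock control, was the most abundant member at 655 RPKM with estradiol and 799 RPKM in the control. CCR1, its relative, had 204 RPKM with estradiol and 211 RPKM in the control. TOC1, which represses CCA1 and LHY, had 58.5 RPKM with estradiol and 74.0 RPKM in the control. CCA1 had 0.309 RPKM with estradiol and 0.660 RPKM in the control, and LHY had 0.528 and 0.481 RPKM in the same order of libraries. Among 20274 measured genes TOC1 ranked at percentile 88.2 with estradiol and 91.2 in the control. CCA1 ranked at percentile 6.22 with estradiol and 11.1 in the control, and LHY at 9.60 with estradiol and 8.91 in the control. COL1, AT1G69570, PAR1 and PRR9 were lower still in both libraries, with PRR9 at 0.0768 RPKM with estradiol and 0.213 RPKM in the control. FT was below CCA1 and LHY with estradiol alone, at 0.126 RPKM.

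**Figure D2:**
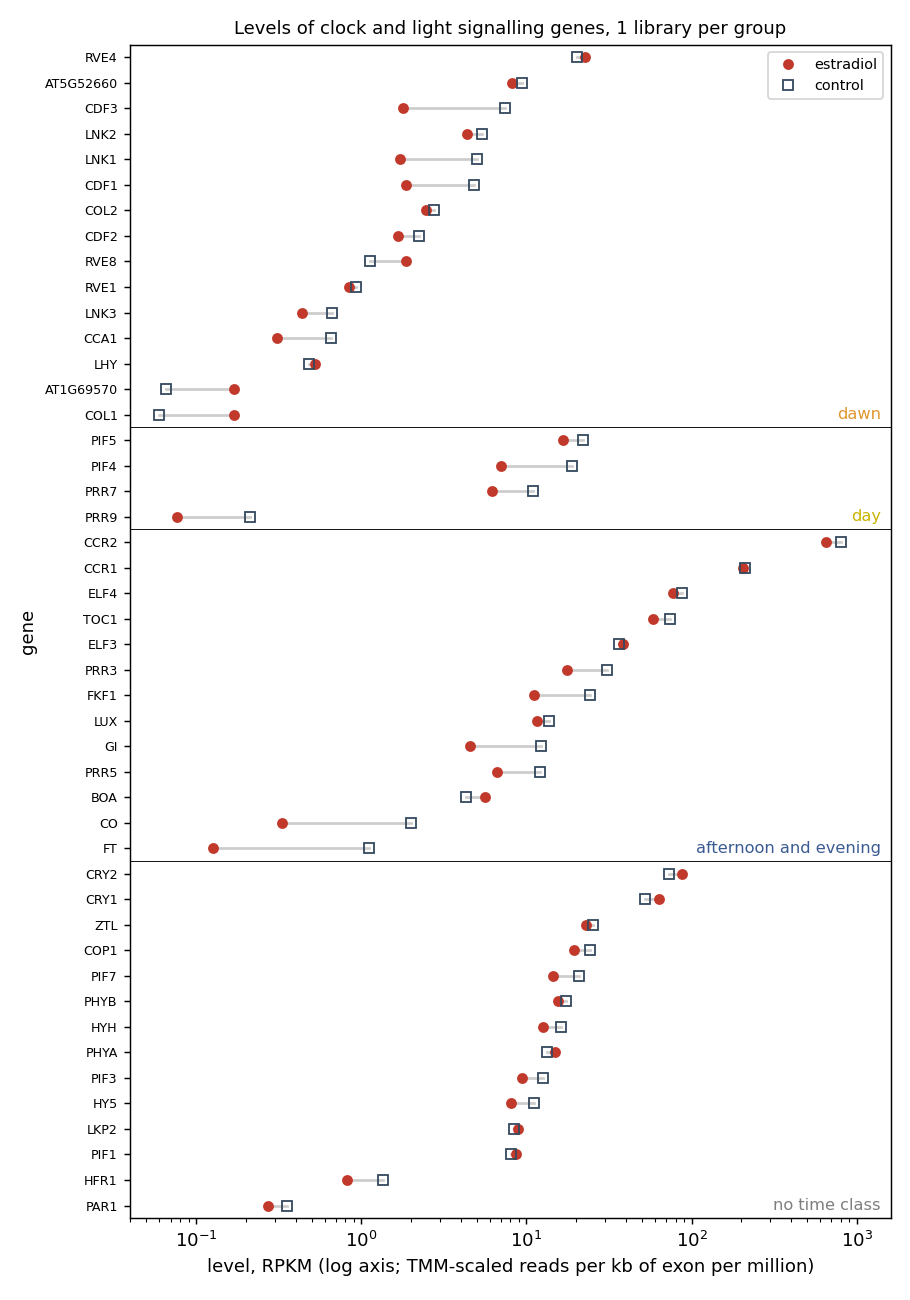
Level of each gene in RPKM on a log axis, for the estradiol library (filled circles) and the control library (open squares), grouped by time-of-day class and ordered by the control level. Each symbol is 1 library. CO and FT show the longest gaps, while CCR1, ELF3 and LHY nearly coincide.

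Part of the evening group shares a promoter motif. Members and classes were picked by known function and peak time, so its share describes the class and is no result of the 2 libraries. The evening element, letters AAAATATCT, is a sequence through which the CCA1, LHY and RVE proteins act. An exact match on either strand in the 500 bases upstream of the annotated start was found for 7 of 13 afternoon and evening genes (53.8%). The share was 4.47% among 26699 protein-coding loci. It was 1 of 15 among dawn genes (COL2), and 0 of 4 and 0 of 14 among day genes and genes without a class. The 7 stretches are printed because these genes share a motif and an evening peak but not a ratio. They are read from the TAIR10.1 RefSeq assembly in the direction of transcription, with the element in capitals in either orientation.
CCR2 (chr2:9266560-9266653, minus strand): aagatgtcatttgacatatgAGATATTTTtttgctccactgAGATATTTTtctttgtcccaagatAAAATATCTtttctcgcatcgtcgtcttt
CCR1 (chr4:18275217-18275248, minus strand): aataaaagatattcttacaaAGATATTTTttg
TOC1 (chr5:24674792-24674840, plus strand): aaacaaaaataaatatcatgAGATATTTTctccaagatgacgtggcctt
LUX (chr3:17182969-17183017, plus strand): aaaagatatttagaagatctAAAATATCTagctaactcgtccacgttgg
BOA (chr5:24003825-24003873, plus strand): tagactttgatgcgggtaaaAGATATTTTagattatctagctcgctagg
PRR5 (chr5:8358705-8358858, minus strand): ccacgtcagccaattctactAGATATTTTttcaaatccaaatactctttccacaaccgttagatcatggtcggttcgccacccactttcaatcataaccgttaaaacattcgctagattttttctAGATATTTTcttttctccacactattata
FKF1 (chr1:25508246-25508481, plus strand): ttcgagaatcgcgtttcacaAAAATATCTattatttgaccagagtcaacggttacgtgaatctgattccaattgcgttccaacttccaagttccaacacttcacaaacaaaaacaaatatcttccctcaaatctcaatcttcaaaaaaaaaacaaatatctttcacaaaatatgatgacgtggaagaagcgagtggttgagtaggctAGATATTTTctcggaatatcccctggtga

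CCR2 holds 3 elements within 76 bases of its start, and PRR5 and FKF1 hold 2 each. The log2 ratios of these 7 genes ran from -1.13 for FKF1 to 0.38 for BOA, with CCR2 at -0.29, CCR1 at -0.05, TOC1 at -0.34, LUX at -0.25 and PRR5 at -0.88. Of the 8 genes called lower only FKF1 has an element in this window. GI, CO and FT have no exact match in this window.

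Other motifs of the pathway were searched in the same windows on both strands, and no match overlapped a match of another motif. The G-box, letters CACGTG, is bound by PIF and HY5 proteins. It was found for 11 of 46 members (23.9%), among them CCA1, LHY, PRR9 and PRR7, against 9.46% of all protein-coding loci. The CCA1 site, letters AAAAATCT, was found for 7 of 46 members (15.2%) against 12.6% of all loci. One form of the site bound by LUX, letters GATTCG, was found for 14 of 46 (30.4%) against 15.4% of all loci. Of the 8 genes called lower, 0 had a G-box or a CCA1 site, and LNK1 and CO had the LUX letters.

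**Figure D3:**
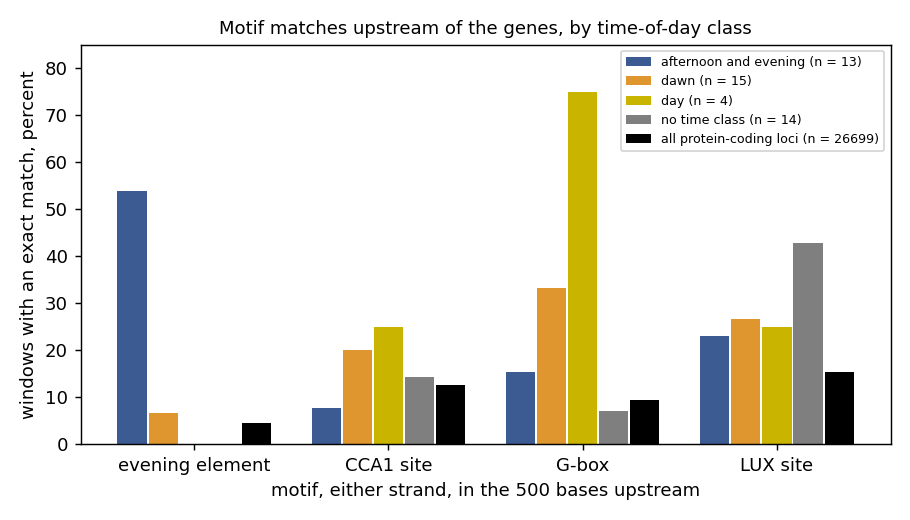
Percent of upstream windows of 500 bases with at least 1 exact match on either strand, for each motif and time-of-day class, beside all 26699 protein-coding loci. The bar for the evening element is highest in the afternoon and evening genes, at 53.8% against 4.47% of all loci.

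Of the dawn transcription factor genes CCA1, LHY, RVE8, RVE4, RVE1 and AT5G52660, none was called. CCA1, a MYB-like repressor of evening genes, had 41 counts with estradiol and 71 in the control, 2.13-fold lower (1.43 to 3.22). LHY, its closest partner, had 88 counts with estradiol and 65 in the control, a ratio of 1.10 (0.788 to 1.54). The ratio of CCA1 to LHY counts within a library was 0.466 with estradiol and 1.09 in the control. Estradiol over control this was 0.427 (0.259 to 0.704), so these partner genes did not keep the same proportion within counting error. RVE8, an activator of evening genes, had 212 counts with estradiol and 105 in the control, 1.64-fold higher (1.29 to 2.09). RVE4 (symbol LCL1), a relative of RVE8, had 2317 and 1678 counts in the estradiol and control libraries, a log2 ratio of 0.16. RVE1, a MYB-like protein gene that ties the clock to auxin, was at -0.14. AT5G52660, annotated as a homeodomain-like protein, was at -0.21.

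LNK proteins are coactivators that RVE8 recruits to evening genes. LNK1 (AT5G64170) had 224 counts with estradiol and 526 in the control, 2.89-fold lower (2.47 to 3.40). LNK2 had 620 counts with estradiol and 623 in the control, 1.24-fold lower (1.11 to 1.39), and LNK3 had 35 and 43 counts in the same order, with a log2 ratio of -0.59. LNK1 alone of the 3 was called. Its exons overlap those of AT5G64160 on the opposite strand by 245 bases. That neighbour had 488 counts with estradiol and 376 in the control, a log2 ratio of 0.07.

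All 5 PRR genes, whose proteins repress CCA1 and LHY in a daily sequence, had ratios below 1 and none was called. PRR7 had 978 counts with estradiol and 1403 in the control, 1.77-fold lower (1.63 to 1.92). PRR5 had 538 and 804 counts in the estradiol and control libraries, 1.84-fold lower (1.65 to 2.06). PRR3 had 2401 and 3394, 1.74-fold lower (1.65 to 1.84). These genes, of successive phases, had overlapping intervals, and the ratio of PRR7 to PRR5 counts differed by 1.04-fold (0.909 to 1.19) between the libraries. TOC1 (PRR1) had 8006 counts with estradiol and 8208 in the control, 1.26-fold lower (1.22 to 1.30), nearer to 1 than PRR3, PRR5 and PRR7. PRR9 had 8 and 18 counts, 2.77-fold lower with a wide interval (1.15 to 7.37). PRR9 has a similar copy, AT2G46670, at 0 counts with estradiol and 3 in the control, so its few reads are uncertain.

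The evening complex of ELF3, ELF4 and LUX, which represses growth and clock genes at night, lay near 1. ELF3 had 5175 counts with estradiol and 3964 in the control, a ratio of 1.06 (1.02 to 1.10). ELF4 had 2317 counts with estradiol and 2152 in the control, a ratio of 0.874 (0.824 to 0.927). LUX (symbol PCL1) had 2205 counts with estradiol and 2129 in the control, a ratio of 0.840 (0.792 to 0.892). The counting intervals of the 3 therefore held them between 0.792 and 1.10. BOA, the close relative of LUX, had 996 counts with estradiol and 619 in the control, a ratio of 1.31 (1.18 to 1.45). BOA exons overlap UGT76E1 on the opposite strand by 1679 bases, and UGT76E1 had 57 counts with estradiol and 14 in the control. LUX exons overlap those of AT3G46650 by 698 bases.

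GI and FKF1, which in blue light form a complex that removes CDF repressors, were both called lower. GI had 958 counts with estradiol and 2074 in the control, 2.67-fold lower (2.47 to 2.88). FKF1 had 1178 counts with estradiol and 2090 in the control, 2.19-fold lower (2.03 to 2.35), so its interval ends close to the 2-fold line. The other two LOV-domain F-box genes were not called. ZTL, whose protein targets TOC1 and PRR5 for degradation, had 2711 counts with estradiol and 2428 in the control, a ratio of 0.906 (0.857 to 0.957). LKP2 had 1016 counts with estradiol and 782 in the control, a ratio of 1.05 (0.960 to 1.16).

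Within-library count ratios, in which library scaling cancels, set the dawn genes CCA1, LHY and LNK2 against single evening genes. LHY over GI was 2.93-fold higher with estradiol than in the control (2.11 to 4.08), while LHY over TOC1 was 1.39-fold higher (1.01 to 1.92) and LHY over ELF4 1.26-fold (0.908 to 1.74). LNK2 over GI was 2.15-fold higher (1.88 to 2.47), but LNK2 over TOC1 was 1.02-fold (0.909 to 1.15) and LNK2 over ELF4 0.924-fold (0.815 to 1.05). CCA1 gave ratios of 0.592 over TOC1 (0.403 to 0.871), 0.536 over ELF4 (0.364 to 0.791) and 1.25 over GI (0.845 to 1.85). In these pairs dawn over evening thus had no common direction, since it depended on which gene stood for each time. Each value is the quotient of the ratios of its genes and adds no further evidence. The dawn genes called lower, CDF3, CDF1 and LNK1, were not paired. The pairs share genes and are not independent.

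**Figure D4:**
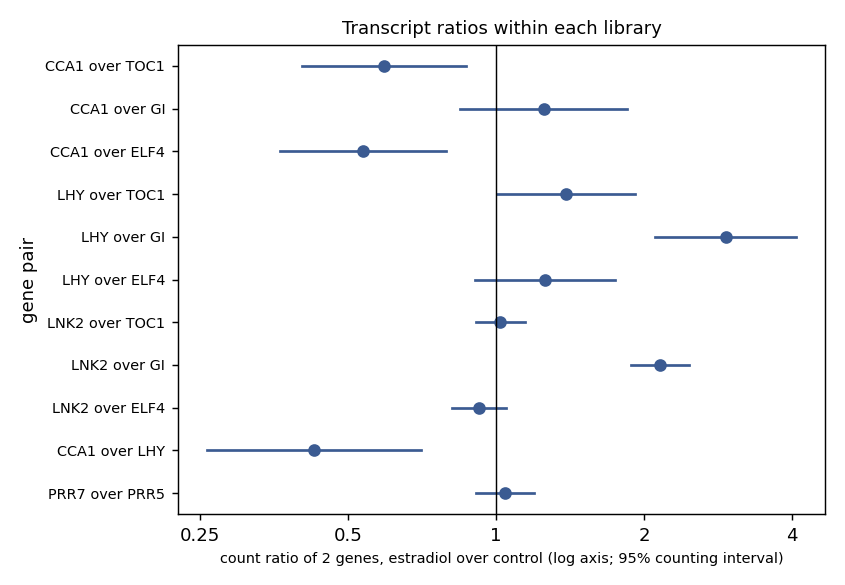
Count ratio of a gene pair within a library, estradiol over control, on a log axis with 95% counting intervals, 1 library per group. LHY over GI and LNK2 over GI lie above 2, CCA1 over LHY lies below 0.5, and LNK2 over TOC1 and PRR7 over PRR5 lie near 1.

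The photoperiod branch runs from the CDF repressors through CO to FT, and COL1 and COL2 were listed with it. It held 4 of the 8 calls among its 8 members (50%, against 4.64% of all measured genes). Its median log2 ratio was -0.90. CO (AT5G15840), a B-box transcription factor gene, had 47 counts with estradiol and 230 in the control, 6.03-fold lower (4.39 to 8.44). FT (AT1G65480) had 6 counts with estradiol and 43 in the control, 8.83-fold lower (3.74 to 25.4). By log2 ratio, CO lay at percentile 0.932 and FT at percentile 0.612 of all measured genes. Both were low in level, at 0.330 RPKM with estradiol and 1.99 RPKM in the control for CO, and at 0.126 RPKM with estradiol and 1.12 RPKM in the control for FT. FT is a phloem gene, and the 4 phloem markers SUC2, APL, FTIP1 and SWEET11 summed to 310.2 CPM with estradiol and 415 CPM in the control. Of these 4 markers 0 were called, and their log2 ratios ran from -0.69 for SWEET11 to -0.17 for APL.

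CDF proteins are DOF factors that repress CO and FT in the morning. CDF3 had 165 counts with estradiol and 557 in the control, 4.16-fold lower (3.49 to 4.98). CDF1 had 129 counts with estradiol and 273 in the control, 2.61-fold lower (2.11 to 3.24). CDF2 had 197 counts with estradiol and 214 in the control, 1.34-fold lower (1.10 to 1.63), and was not called. The repressor genes CDF1 and CDF3 and their target genes CO and FT were thus lower in the same library. AT1G69570, annotated as a DOF-type zinc finger protein, had 16 counts with estradiol and 5 in the control. Its antisense partner AT1G69572 was at 0 in both libraries.

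CO and COL1 (AT5G15850) are close relatives with neighbouring locus numbers. COL1 had 14 counts with estradiol and 4 in the control, a ratio of 2.84 (0.892 to 11.9), which leaves the direction unresolved at this depth. The noncoding locus AT5G15845 lies on the opposite strand, overlapping the exons of COL1 by 1698 bases and those of CO by 5 bases. It had 9 counts with estradiol and 16 in the control. COL2 had 269 and 245 counts in the estradiol and control libraries, a log2 ratio of -0.17, and overlaps 2 other loci.

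PIF proteins are helix-loop-helix factors that phytochromes inactivate in light. PIF4, which promotes elongation growth, had 889 counts with estradiol and 1948 in the control, 2.70-fold lower (2.49 to 2.93). PIF5 (symbol PIL6), its closest partner, had 2077 counts with estradiol and 2229 in the control, 1.32-fold lower (1.25 to 1.40). PIF4 had less than PIF5 by level in both libraries, at 7.03 RPKM with estradiol and 19.0 RPKM in the control, beside 16.7 RPKM and 22.0 RPKM for PIF5. PIF7, known from shade responses, was at a log2 ratio of -0.52, PIF3 at -0.42 and PIF1 (symbol PIL5), a repressor of seed germination in the dark, at 0.10. HFR1 and PAR1, which bind and block PIF proteins, were at -0.73 (61 counts with estradiol, 82 in the control) and -0.39 (16 and 17 counts in the same order).

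Of the 4 photoreceptor genes among the members, 0 were called. PHYA had 3696 counts with estradiol and 2691 in the control, a ratio of 1.11 (1.06 to 1.17), and PHYB had 3428 and 3086 in the same order, a ratio of 0.901 (0.858 to 0.947). CRY1 had 9266 counts with estradiol and 6220 in the control, 1.21-fold higher (1.17 to 1.25). CRY2 had 11567 counts with estradiol and 7837 in the control, 1.20-fold higher (1.16 to 1.23). The cryptochromes, at 63.0 and 87.1 RPKM with estradiol for CRY1 and CRY2, against 52.2 and 72.7 RPKM in the control, were well above the phytochromes. PHYA had 14.9 RPKM with estradiol and 13.3 RPKM in the control, and PHYB had 15.5 RPKM with estradiol and 17.2 RPKM in the control. Downstream, HY5, a bZIP activator of light-responsive genes, had 495 counts with estradiol and 554 in the control, a log2 ratio of -0.46. Its homolog HYH was at -0.36, and COP1, which marks HY5 for degradation, at -0.33. None of the 3 was called.

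Other genes of the same pathways were read from lists made by function, but with earlier results of these data known. Of 18 measured clock-associated genes 1 was lower (5.56%) and 0 higher, with a median log2 ratio of -0.08. This share is near the 4.64% of all measured genes called lower. The called gene was LNK4, a relative of LNK1, with 48 counts with estradiol and 121 in the control, 3.11-fold lower (2.21 to 4.44). AT1G01520 (symbol ASG4) had 22 and 53 counts in the estradiol and control libraries, a log2 ratio of -1.55, and JMJD5, a histone demethylase gene of the clock, was at -0.39. Of 27 measured light signalling genes 1 was lower (3.70%, also near 4.64%) and 0 higher, with a median of -0.36. The called gene of this list was ELIP1, a light-stress protein gene of the thylakoid. It had 494 counts with estradiol and 1928 in the control, 4.81-fold lower (4.35 to 5.32). SPA3, whose protein works with COP1, was at -0.89, and the phytochrome gene PHYD was 1.83-fold higher (1.70 to 1.97) without a call.

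Of 15 measured B-box and CO-like genes, relatives of CO, 3 were lower (20%) and 0 higher, with a median log2 ratio of -0.56. Of all measured genes 4.64% were called lower, but the choice of this list was not independent of the ratios. BBX18 had 74 counts with estradiol and 245 in the control, 4.08-fold lower (3.13 to 5.37). BBX25 (symbol STH) had 84 counts with estradiol and 238 in the control, 3.49-fold lower (2.71 to 4.53). BBX31, a small B-box protein gene, had 5 counts with estradiol and 25 in the control, 6.16-fold lower (2.32 to 20.6). BBX31 reached the count minimum in the control library alone. BBX30, at 0 counts with estradiol and 4 in the control, and BBX23, at 0 in both libraries, fell short of this minimum and were not measured. Among flowering regulators, SOC1 (symbol AGL20), a target of CO and FT, had 2341 counts with estradiol and 1507 in the control, 1.26-fold higher (1.18 to 1.35). The repressor genes FLC and SVP were at log2 ratios of 0.39 and -0.42, and 0 of these 3 measured genes was called. TSF, the closest relative of FT, had 0 counts with estradiol and 3 in the control.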

How the data were processed

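The authors deposited raw read counts per locus, 1 table per library. Per the submitters' processing notes, HTSeq, FastQC, DESeq and the TAIR10 build are named, with no role or version. Aligner, annotation release and strand setting: not given in the sources used here. Each table's 5 summary lines were left out of library sizes. Ambiguous reads were 1.91% of listed reads with estradiol and 2.05% in the control, and reads outside features 0.693% and 0.742%.

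Groups follow the treatment label, with 1 library each. Counts were scaled by TMM factors (edgeR 4.0.16, R 4.3.3), 1.01 with estradiol and 0.993 in the control. Ratios have exact Clopper-Pearson 95% intervals, conditional on the sum of both counts. Ratios of gene pairs have intervals from the Poisson error of 4 counts on the log scale. All intervals cover counting error only, and PCR copies cannot be told from separate molecules, so variation between libraries is not included. Log2 ratios use a prior count of 0.5.

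Members, lists, time classes and named genes were chosen with earlier results of these data known. All members are named, with full values for called genes and the core clock. Of each other list the called genes and the 3 with the interval bound farthest from 1 are named.

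Symbols, products and exon lengths come from TAIR10.1, which matched 32835 of 33602 loci and all 46 members. Its exon models may differ from those counted. Of the members, 14 overlap another counted locus on the opposite strand, which makes their counts uncertain as long as strandedness is unknown. These are LNK1, LNK2, LNK3, ELF3, LUX, BOA, FKF1, LKP2, AT1G69570, COL1, COL2, CO, PIF1 and PIF7. PRR9, BOA and CO have a similar copy (blastn 2.17.0, at least 90% identity over 100 bases). Alternatives tried were DESeq2 1.42.0 size factors, total counts, other count minimums, thresholds and prior counts, an assumed spread, and leaving out overlapping members.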

Additional observations from a re-analysis of the deposited data

How the results depend on the processing

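The 8 lower calls were the same genes with DESeq2 size factors and with total gene counts. All 46 members passed the main count minimum, so leaving it out could change no call. With a minimum of 50 counts, met by 40 members, 7 of the 8 were called, all but FT. Without the 14 members that overlap another annotated gene, 5 of 32 were lower, since CO, FKF1 and LNK1 were left out. In that setting the median log2 ratio was -0.57 for the evening class and -0.33 for genes without a class. At a 4-fold threshold 1 member, CO, was lower, and with an assumed coefficient of variation of 0.2 between libraries 3 were, CDF3, CO and FT. The number of higher calls was 0 under all these settings. The share of all measured genes called was computed for the main setting alone. With either other scaling or a prior count of 5, the log2 ratio of each of the 46 members stayed inside its counting interval. The variation between libraries cannot be estimated here, and depth limits PRR9, FT, COL1, PAR1 and AT1G69570 most. No paired analysis was possible because each group has 1 library, and for the same reason no library could be left out.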
